A study of Mus musculus with 6 samples.

Results

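The genes described here are the RNAs of the hypoxia-inducible factor (HIF) pathway and of hypoxia targets outside glycolysis in mouse L929 fibroblasts. The set holds 36 genes, taken from a table of 27507 gene identifiers by their symbol. It has 9 genes of the oxygen-sensing machinery (Hif1a, Epas1, Hif3a, Arnt, Vhl, Hif1an, Egln1, Egln2 and Egln3) and 27 targets. Poly(A) RNA was sequenced from 3 STING KO samples and 3 control samples, whose genotype label is WT. Both groups are the L929 line, a connective tissue fibroblast line, and the labels name no treatment, no oxygen level and no cell clone. The labels do not say whether the replicates were separate cultures, and the p-values below therefore cover only the spread among these 6 samples, possibly a technical one.

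HIF is a pair of a labile alpha subunit and the stable partner ARNT. With oxygen present, EGLN prolyl hydroxylases mark the alpha subunit, the VHL ubiquitin ligase binds the mark and the protein is degraded, while the asparaginyl hydroxylase HIF1AN blocks its coactivators. When oxygen falls the alpha subunit persists, and the pair binds hypoxia response elements, whose core reads ACGTG or GCGTG, and raises genes of pH control, mitophagy, collagen modification and angiogenesis. The alpha subunits are set mostly at the level of the protein, which RNA does not show.

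Values are normalized counts, that is, gene counts that the authors divided by a size factor of each sample, and the totals were 14382072 to 14526606 per sample. Sting1, listed as Tmem173, was at 82.1, 80.6 and 93.4 normalized counts in STING KO, against 329, 313 and 311 in control, and fell in STING KO at a log2 fold change of -1.90 (limma, SE 0.09, adjusted p = 9.72e-06). Some of its RNA was thus still counted in STING KO. All 10 fibroblast markers were detected, and their sum was 232948 to 253156 in STING KO and 217759 to 233903 in control. Transcripts typical of hepatocytes stood out in 2 libraries: the 12 markers summed to 5281 in STING KO replicate 1 and 5662 in control replicate 3, and to 255 to 689 in the other 4. Albumin, Alb, was at 2552, 268 and 113 normalized counts in STING KO, against 243, 101 and 2779.7 in control. The 9 macrophage and leukocyte markers summed to 824 to 974 in STING KO and 772 to 908 in control. Most of this was Cd68, at 749 to 860 in STING KO and 670 to 771 in control. Lyz2 was at 71.3 in STING KO replicate 1 and 97.4 in control replicate 3, and at 15.96 to 22.1 in the other libraries. Csf1r was also highest in these replicates, at 41.6 in STING KO replicate 1 and 49.7 in control replicate 3. It was at 27.95 to 33.9 in the other libraries. Cd68 and Cd14 did not stand out in both of these replicates. The 5 endothelial markers summed to 11.05 to 23.8 in STING KO and 15.97 to 19.9 in control, and the 4 epithelial markers to 496 to 604 in STING KO and 439 to 509 in control. No list had a marker at 0 in all 6 libraries. The part of these cell types in the results below was not tested, beyond the values given without both hepatocyte-marked libraries. In bulk RNA, fewer cells of a type and less RNA per cell cannot be told apart.

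The targets of this set lay higher in STING KO more often than other genes did, and the oxygen-sensing machinery leaned less that way. Both had positive and negative signs. Of the 24 tested targets, 20 had a positive log2 fold change (83.3%), against 49.2% of all tested genes and 80.6% of 31 paralogs of the members described further on, and the median was 0.17, against -0.00 over all 12408 tested genes. In 13 targets every STING KO library was above every control library and in 0 every one was below, shares of 54.2% and 0.0%. Over all tested genes those shares were 5.76% and 6.32%. In a list of 38 other tested hypoxia targets outside glycolysis, 52.6% were positive and those shares were 15.8% and 15.8%. The members and lists were chosen with earlier results of these data known. Of the 8 tested genes of the oxygen-sensing machinery, 5 were positive and 3 negative, at a median log2 fold change of 0.05 (0.04 without Egln3, itself a known target), and 1 gene, Egln1, did not overlap. The 3 prolyl hydroxylases, of which Egln1 and Egln3 are also targets, were all positive at a median of 0.166. The 3 tested HIF subunits had a median of -0.112, with 1 positive and 2 negative. The difference between the medians of the targets and the machinery was not tested. No member was called by limma at an adjusted p at or under 0.05, in either direction; over all genes the shares called were 0.0% higher and 0.258% lower. Before adjustment, limma placed 16 members past 0.05 as higher and 0 lower, against 3.2% and 3.18% of all tested genes. The authors' deposited table puts 3 of the members past the same threshold as higher, Ndrg1, Car9 and Selenbp1, where it has 0.043% of its 13942 genes higher and 0.251% lower.

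Of the 36 members, 32 had at least 10 normalized counts in at least 3 samples and were tested. All but Hif3a were at or above 10 in all 6 libraries. Epas1, Car12, Stc1 and Stc2 were under this minimum. The highest of the 6 libraries was a STING KO library for 28 of the 32 tested members and a control library for 4, where 51.2% of all tested genes peaked in a STING KO library. The lowest was a control library for 25 members, as it was for 46.5% of all tested genes. For the other 7 it was STING KO replicate 3, which was also the lowest library for 29.9% of all tested genes.

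**Figure D1:**
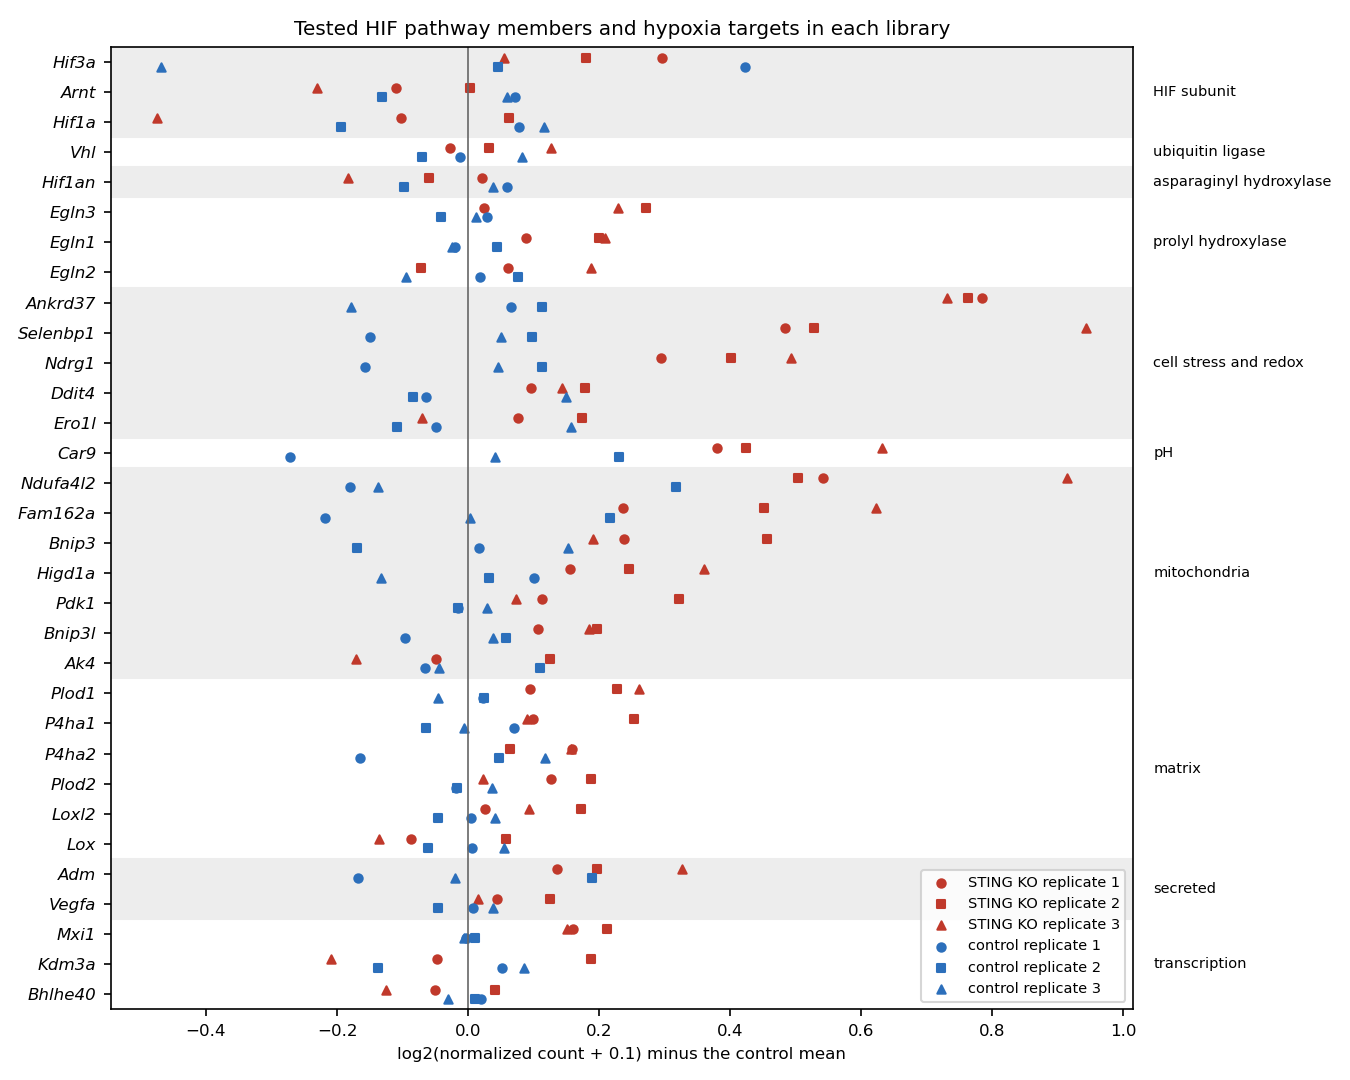
Each tested member in each library, as log2(normalized count + 0.1) minus the control mean of that gene, with STING KO points above control points and members grouped by role. Ankrd37, Selenbp1, Ndrg1 and Ndufa4l2 have their 3 STING KO points clear of the control points, while Hif1a, Arnt and Kdm3a have STING KO replicate 3 at their low end.

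Promoters of 27 members were found among the RefSeq promoter windows of GRCm38.p6, which run from 250 bases before to 50 bases after each annotated start. They are shown because the core of the hypoxia response element is the sequence by which HIF finds its targets. ACGTG and GCGTG were searched on both strands, so CACGT and CACGC are the same letters on the other strand, and overlapping matches such as the palindrome CACGTG were counted once. At least 1 match was present in 18 of 19 targets (94.7%) and in 6 of 8 genes of the oxygen-sensing machinery (75%), against 46.7% of all 27025 genes and 66.9% of the 9857 tested genes with a window. The stricter ACGTG was present in 13 of 19 targets (68.4%) and 4 of 8 genes of the machinery (50%), against 21.8% of all genes and 29.1% of tested genes. Within the targets, 10 of 10 that were higher in every STING KO library and 8 of 9 others had a match, and 8 and 5 had ACGTG. The others include Car12 and Stc2, which were not tested, and Car12 had no match. The member windows also had more G and C, with a median of 64.3% and 25 CG dinucleotides, against 60.3% and 20 in windows of tested genes and 52.7% and 7 in all windows, and the part of base composition in these shares was not tested. A match is a description of letters and does not show binding. Epas1, Ndrg1, Bnip3l, Ndufa4l2, Plod2, Lox, Loxl2, Stc1 and Bhlhe40 had no entry.

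The windows below belong to 4 targets that were higher in every STING KO library and to P4ha2, which has matches but overlapping groups. Capitals mark the matches, and each sequence runs 5′ to 3′ on the strand of its gene. The coordinates are chr8:45999801-46000100 (minus) for Ankrd37, chr4:43506776-43507075 (plus) for Car9, chr16:36071512-36071811 (minus) for Fam162a, chr7:138909457-138909756 (minus) for Bnip3 and chr11:54100674-54100973 (plus) for P4ha2.
Ankrd37: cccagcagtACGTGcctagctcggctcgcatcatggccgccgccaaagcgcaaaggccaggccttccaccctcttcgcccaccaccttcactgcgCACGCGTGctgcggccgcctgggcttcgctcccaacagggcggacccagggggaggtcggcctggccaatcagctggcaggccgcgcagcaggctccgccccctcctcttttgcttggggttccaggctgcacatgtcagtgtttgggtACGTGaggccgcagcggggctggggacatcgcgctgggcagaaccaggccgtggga
Car9: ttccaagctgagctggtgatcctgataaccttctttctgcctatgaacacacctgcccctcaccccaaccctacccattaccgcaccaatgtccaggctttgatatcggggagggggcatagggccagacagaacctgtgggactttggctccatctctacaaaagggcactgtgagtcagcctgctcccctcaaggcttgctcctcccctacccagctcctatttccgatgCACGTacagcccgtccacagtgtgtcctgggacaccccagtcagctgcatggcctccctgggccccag
Fam162a: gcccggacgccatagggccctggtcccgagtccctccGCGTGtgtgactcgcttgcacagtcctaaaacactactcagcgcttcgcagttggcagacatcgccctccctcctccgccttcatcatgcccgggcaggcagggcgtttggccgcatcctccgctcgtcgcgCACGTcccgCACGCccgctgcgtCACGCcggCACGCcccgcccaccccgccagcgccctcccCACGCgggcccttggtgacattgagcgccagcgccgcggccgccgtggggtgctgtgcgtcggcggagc
Bnip3: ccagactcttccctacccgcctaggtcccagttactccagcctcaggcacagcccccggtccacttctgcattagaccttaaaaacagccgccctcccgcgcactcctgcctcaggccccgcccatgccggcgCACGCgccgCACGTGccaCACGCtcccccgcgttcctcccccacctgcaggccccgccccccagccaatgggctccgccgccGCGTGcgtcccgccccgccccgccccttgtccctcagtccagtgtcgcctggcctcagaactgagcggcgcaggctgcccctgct
P4ha2: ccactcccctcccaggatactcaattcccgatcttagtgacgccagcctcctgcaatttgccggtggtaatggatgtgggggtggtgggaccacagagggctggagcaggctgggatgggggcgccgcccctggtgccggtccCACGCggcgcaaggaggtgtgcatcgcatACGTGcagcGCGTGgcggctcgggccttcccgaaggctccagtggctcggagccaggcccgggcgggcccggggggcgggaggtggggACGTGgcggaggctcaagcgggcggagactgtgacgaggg
The Ankrd37 window has 3 separate stretches, of which the one nearest the start begins 6 bases before it. In Car9 there is 1, beginning 18 bases before the start. The Fam162a window has 6, Bnip3 4 and P4ha2 4.

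The RNAs of the HIF subunits did not differ detectably between the genotypes. Hif1a, the main oxygen-labile subunit, was at 1942, 2177 and 1500.3 normalized counts in STING KO, against 2199, 1823 and 2259 in control. The groups overlapped, and the lowest value was STING KO replicate 3. The fold change was 0.888 with a 95% interval of 0.726 to 1.09 (limma adjusted p = 0.744). Arnt, the constant partner, was at 2299, 2487 and 2114 in STING KO and 2608, 2264 and 2585 in control, a fold change of 0.925 (0.823 to 1.04). Both genes had a negative sign, opposite to most targets, and kept it under the alternatives run, with log2 fold changes of -0.29 to -0.02 for Hif1a and -0.18 to -0.05 for Arnt.

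The other alpha subunits were scarce. Epas1, which encodes HIF-2 alpha, was at 21.8, 9.96 and 2.01 normalized counts in STING KO and 3.99, 1.995 and 11.9 in control. Its highest value in each group came from the library with hepatocyte transcripts, and its part in this was not tested. Hif3a, whose splice forms include inhibitors of HIF, was at 11.9, 10.95 and 10.04 in STING KO and 13.0, 9.98 and 6.95 in control. Per kilobase of merged exons, Hif1a and Arnt had mean levels of 318 and 287 normalized counts in STING KO and 355 and 310.4 in control. Epas1 and Hif3a had 2.01 and 1.63 in STING KO and 1.07 and 1.49 in control, so Hif1a was the main alpha subunit RNA in both groups.

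Among the oxygen sensors, Egln1, which encodes the prolyl hydroxylase PHD2 and is a HIF target as well, was at 2984, 3226 and 3246 normalized counts in STING KO, against 2769, 2894 and 2761 in control. Every STING KO value was above every control value, at a fold change of 1.12 (95% interval 1.04 to 1.22, limma adjusted p = 0.675). Egln3, encoding PHD3 and also a target, was at 501, 594 and 577 in STING KO and 502, 479 and 497 in control. Its groups overlapped through STING KO replicate 1, and the fold change was 1.13 (1.002 to 1.27). Egln2, which encodes PHD1, was at 1152, 1050.4 and 1257 against 1118, 1164 and 1034 in control, with a fold change of 1.04 (0.925 to 1.17). Per kilobase, Egln1 was the most abundant of these enzymes, at 877 in STING KO and 781 in control, above Egln2 at 412 and 395 and Egln3 at 209 and 185.

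Vhl, the substrate receptor of the ligase that degrades HIF alpha, was at 603, 628 and 671 normalized counts in STING KO and 609, 586 and 651 in control. Hif1an, the asparaginyl hydroxylase, was at 1006, 951 and 873 in STING KO and 1033, 927 and 1017 in control. Both overlapped between the groups, with fold changes of 1.03 (0.926 to 1.15) and 0.950 (0.850 to 1.06). Of the 8 tested genes of the machinery, 7 had a fold change whose 95% interval stayed inside 1.5-fold either way, as did 85.4% of all tested genes; the exception was the scarce Hif3a.

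**Figure D2:**
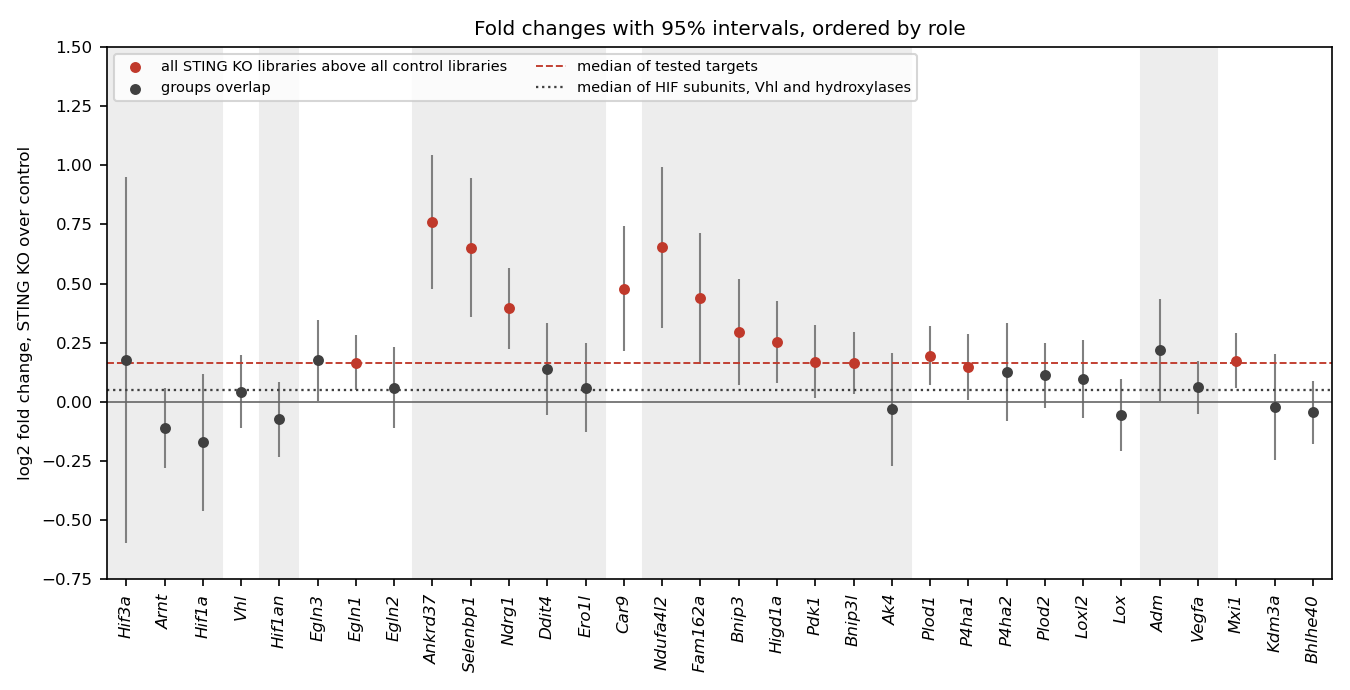
Log2 fold changes of STING KO over control from limma with their 95% intervals, by role, in red where the groups do not overlap. The dashed line is the median of the tested targets, 0.17, and the dotted line that of the HIF subunits, Vhl and hydroxylases, 0.05; Ankrd37 has the highest value, 0.76.

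The cell stress and redox targets held the largest log2 fold change among the 32 tested members, that of Ankrd37. Ankrd37, a small ankyrin repeat protein and HIF target, was at 97.0, 95.6 and 93.4 normalized counts in STING KO, against 58.9, 60.9 and 49.7 in control. The STING KO values lay close together and all above the control values, at means of 95.3 ± 1.82 and 56.5 ± 5.97 (SD, n = 3 each). Its log2 fold change was 0.76 (SE 0.13), with a limma adjusted p of 0.0602, just outside the threshold, and of 0.055 to 1 over the alternatives. The authors' deposited table gives 0.76 with a larger SE of 0.23 and an adjusted p of 0.329. The gene (ENSMUSG00000050914, protein coding) lies on chromosome 8 at 45996902 to 46005707 on the minus strand in GRCm38.

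Ndrg1, a cytosolic protein of the NDRG family that responds to hypoxia and other stress, was at 4473, 4814 and 5128 normalized counts in STING KO, against 3269.7, 3940.3 and 3761 in control. No control library reached the lowest STING KO library. The log2 fold change was 0.40 (SE 0.08, limma adjusted p = 0.143), and the authors' deposited table gives 0.39 with an adjusted p of 0.000575. Limma called it after the correction for GC content and length (adjusted p = 0.0268), and its adjusted p ran up to 0.607 over the alternatives. It lies on chromosome 15 at 66929318 to 66969640 on the minus strand (ENSMUSG00000005125).

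Selenbp1, a selenium-binding methanethiol oxidase, was at 231, 238 and 317 normalized counts in STING KO, against 149, 177 and 171 in control. STING KO replicate 3 stood above the other 2, which were still above all control libraries. The log2 fold change was 0.65 (SE 0.13, limma adjusted p = 0.167); the adjusted p was 0.0332 in the authors' deposited table and 0.0358 with the GC and length correction, within a range up to 0.9. Its near-identical neighbour Selenbp2 was at 24.7, 29.9 and 31.1 in STING KO and 14.0, 23.9 and 20.9 in control, and reads could be split between these genes, so the value of each is uncertain.

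The other genes of this group showed smaller differences. Ddit4, an inhibitor of mTORC1, averaged 271 ± 7.77 normalized counts in STING KO and 247 ± 22.7 in control, and Ero1l, the endoplasmic reticulum oxidase ERO1 alpha, 1823 ± 154 and 1750.5 ± 173 (SD, n = 3 each). Their groups overlapped, at fold changes of 1.101 (95% interval 0.963 to 1.26) and 1.04 (0.915 to 1.19).

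Of the pH genes, Car9, a carbonic anhydrase of the cell surface and a classical HIF target, was at 1848, 1906 and 2201 normalized counts in STING KO, against 1177, 1666 and 1461 in control. The groups did not overlap, and control replicate 2 was the highest of the control libraries. The log2 fold change was 0.48 (SE 0.12, limma adjusted p = 0.384), and 0.47 with an adjusted p of 0.0138 in the authors' deposited table. Limma did not call it under any alternative, with an adjusted p of 0.0735 without control replicate 2 and 0.989 without control replicate 1, where the log2 fold change was 0.34. Car9 lies on chromosome 4 at 43506966 to 43513729 (ENSMUSG00000028463). Car12, another membrane carbonic anhydrase, was listed at 0 in all STING KO libraries and at 0.998, 0.998 and 1.99 in control, too few counts for a fold change.

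Of the 7 mitochondrial targets, 6 were higher in every STING KO library (85.7%). That share was 54.2% of all tested targets and 5.76% of all tested genes. The median log2 fold change of the mitochondrial group was 0.25. Ndufa4l2, a paralog of a respiratory chain subunit that lowers complex I activity in hypoxia, was at 283, 276 and 367 normalized counts in STING KO, against 172, 242 and 177 in control. Control replicate 2 stood above the other control libraries and below all STING KO libraries. The log2 fold change was 0.65 (SE 0.15, limma adjusted p = 0.326). It was called without control replicate 2 (0.81, adjusted p = 0.0465) and with the GC and length correction (0.53, adjusted p = 0.0343), and its adjusted p ran up to 1 over the alternatives.

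Fam162a, a mitochondrial protein linked to cell death in hypoxia, was at 597, 693 and 780.3 normalized counts in STING KO, against 435, 589 and 508 in control. STING KO replicate 1 and control replicate 2 nearly met, at 597 and 589, and the log2 fold change was 0.44 (SE 0.12, limma adjusted p = 0.554). Higd1a, a protein of the inner mitochondrial membrane, was at 977, 1039 and 1126 in STING KO and 940.5, 897 and 799.7 in control, at 0.25 (SE 0.08). Both genes were highest in STING KO replicate 3, as were Ndrg1, Car9, Selenbp1 and Ndufa4l2. This replicate was the highest library for 11 of the 32 tested members and for 28.4% of all tested genes.

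The mitophagy receptors Bnip3 and Bnip3l, which bring damaged mitochondria to autophagosomes, also did not overlap. Bnip3 was at 472, 549.6 and 457 normalized counts in STING KO, against 405, 356 and 445 in control, a log2 fold change of 0.29 (SE 0.10). Bnip3l was at 1768, 1881 and 1865 in STING KO and 1535, 1709 and 1686 in control, at 0.16 (SE 0.06). Pdk1, the kinase that shuts pyruvate dehydrogenase, was at 1629, 1882 and 1584 in STING KO and 1491, 1490.3 and 1537 in control, at 0.17 (SE 0.07). All 3 genes were highest in STING KO replicate 2, and the limma adjusted p were 0.732, 0.738 and 0.738. This replicate was the highest library for 15 tested members and for 13.3% of all tested genes. Ak4, the mitochondrial adenylate kinase, was the exception in this group, at 149 ± 15.5 in STING KO and 152 ± 10.3 in control (SD, n = 3 each).

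The collagen-modifying targets differed by little. Plod1, a lysyl hydroxylase, was at 3350.3, 3674 and 3761 normalized counts in STING KO, against 3187, 3191 and 3039 in control, a fold change of 1.14 (95% interval 1.05 to 1.25, limma adjusted p = 0.577). P4ha1, a catalytic subunit of collagen prolyl hydroxylase, was at 1911, 2127 and 1899 in STING KO and 1873, 1708 and 1778 in control, at 1.11 (1.01 to 1.22). These were the 2 of 6 matrix genes without overlap (33.3%, against 5.76% of all tested genes), P4ha1 by a narrow gap. P4ha2, another catalytic subunit, averaged 237 ± 8.81 in STING KO and 218 ± 21.6 in control, and Plod2, a lysyl hydroxylase, 898 ± 51.6 and 829.7 ± 17.9 (SD, n = 3 each). Loxl2, a lysyl oxidase homolog, averaged 319.6 ± 16.4 in STING KO and 299 ± 8.88 in control, and Lox, the collagen cross-linking oxidase, 769 ± 54.4 and 798 ± 31.8 (SD, n = 3 each). All 4 overlapped. P4ha2, Plod2 and Loxl2 had fold changes of 1.09, 1.08 and 1.07, and Lox of 0.962 (0.866 to 1.07). The 95% intervals of all 6 stayed inside 1.5-fold either way.

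Among the secreted factors of the HIF response, Vegfa was at close levels in both groups and Adm leaned higher in STING KO. Stc1 and Stc2 were scarce. Vegfa, the endothelial growth factor that is among the best known HIF targets, was at 3123, 3300.4 and 3059.8 normalized counts in STING KO and 3042, 2934 and 3108 in control. The groups overlapped, and the interval of the fold change was 0.965 to 1.13. Adm, the vasodilator adrenomedullin, was at 477, 498 and 544 in STING KO and 386, 495 and 428 in control, at a fold change of 1.16 (1.002 to 1.35) and with control replicate 2 inside the STING KO range. Stc1 was listed at 0 in all 6 libraries, and Stc2, the other stanniocalcin, at 1.98, 0.996 and 0 in STING KO and 0, 0 and 0.993 in control.

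Of the targets that act on transcription, Mxi1, a MAX partner that opposes MYC, was at 1058, 1097 and 1051 normalized counts in STING KO, against 944, 954 and 943 in control. Both groups were tight and did not overlap, at a fold change of 1.13 (95% interval 1.04 to 1.22, limma adjusted p = 0.596). Kdm3a, a histone H3 lysine 9 demethylase, averaged 1136 ± 158 in STING KO and 1149 ± 93.4 in control, and Bhlhe40, a basic helix-loop-helix repressor, 1109.6 ± 64.4 and 1143 ± 21.7 (SD, n = 3 each). Their fold changes of 0.984 (0.842 to 1.15) and 0.970 (0.885 to 1.06) were on the other side of 1 from most targets. Per kilobase of merged exons, Car9 and Fam162a were the most abundant targets in STING KO, at 861 and 812, against 623 and 601 in control, where Vegfa was highest at 707.

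The libraries of each group can be compared by the median of the members relative to the control mean, on the log2 scale. For the 24 targets this median was 0.12, 0.21 and 0.15 in STING KO replicates 1 to 3 and -0.02, 0.02 and 0.04 in control replicates 1 to 3. For the 8 genes of the machinery it was 0.02, 0.05 and 0.09 in STING KO and 0.04, -0.06 and 0.02 in control. The targets were thus apart in every library and the machinery was not. The 27 glycolysis and glycogen genes described further on were apart as well. Their medians were 0.09, 0.13 and 0.18 in STING KO and -0.00, 0.02 and -0.02 in control. The median of all tested genes was between -0.000246 and 0.00394 in each library. Without STING KO replicate 1 and control replicate 3, which hold the hepatocyte transcripts, 22 members were higher in both remaining STING KO libraries and 0 lower, where 12.9% and 14.0% of all tested genes were. The median of the targets was then 0.21 and that of the machinery -0.04. Leaving out control replicate 3 or STING KO replicate 3 alone also turned the sign of the median of the machinery, to -0.02 and -0.00.

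**Figure D3:**
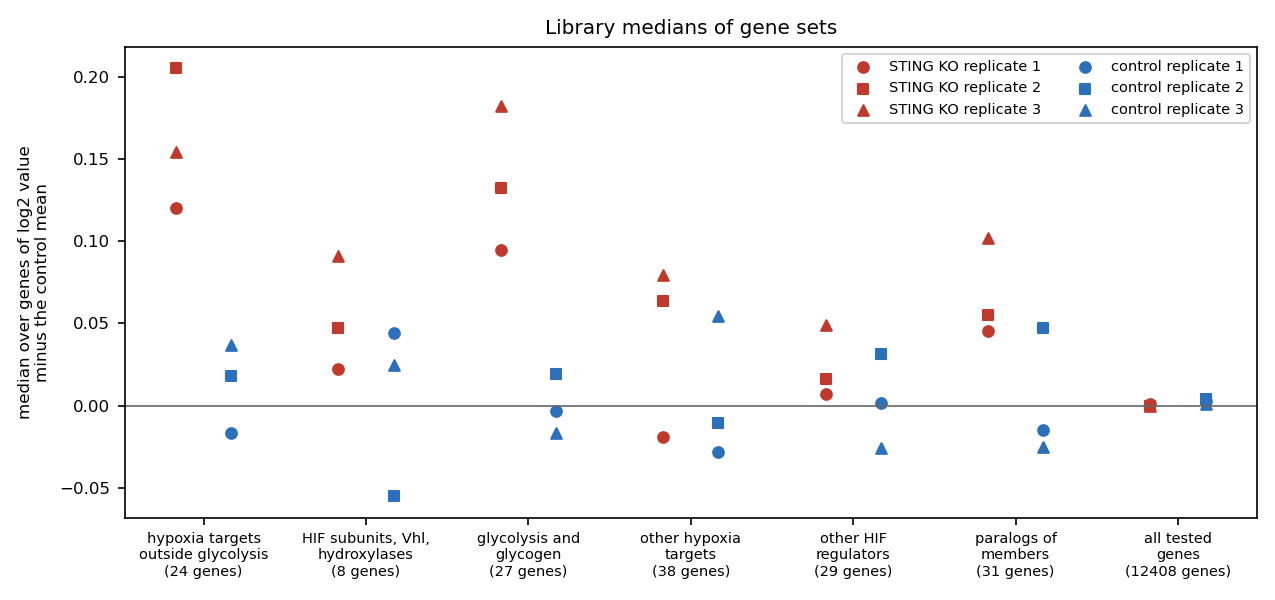
Median over the genes of each set of log2(normalized count + 0.1) minus the control mean, for each library, with STING KO left of control. For the hypoxia targets the STING KO libraries are at 0.12 to 0.21 and the control libraries at -0.02 to 0.04, while the HIF subunits, Vhl and hydroxylases overlap. The glycolysis and glycogen genes are also apart, at 0.09 to 0.18 in STING KO and -0.02 to 0.02 in control.

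Other genes of the pathway were counted from lists. Of 36 further HIF regulators, such as the coactivators Ep300 and Crebbp and the other ligase subunits, 29 were tested and 0 were called in either direction. Their median log2 fold change was 0.04, with 3 higher and 1 lower in every STING KO library. These are shares of 10.3% and 3.45%, against 5.76% and 6.32% of all tested genes. The smallest p among them were those of Trp53, at 2894, 2676 and 3101 normalized counts in STING KO and 3228, 3377 and 3067 in control, and of Rora, at 110, 111 and 83.3 in STING KO and 83.9, 71.8 and 81.5 in control. Both were at a limma adjusted p of 0.738. Rora and Cited2 are also in the list of other hypoxia targets that follows.

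A list of 48 other genes reported as hypoxia targets outside glycolysis did not lean in 1 direction. Of 38 tested, 6 were higher and 6 lower in every STING KO library (15.8% each), the median log2 fold change was 0.02, and 1 was called lower and 0 higher. The called gene was Cp, the copper ferroxidase ceruloplasmin, at 819, 832 and 802 normalized counts in STING KO, against 1154, 1118 and 1312 in control. The groups were well apart, and the log2 fold change was -0.54 (limma, SE 0.07, adjusted p = 0.0097). The call was lost without control replicate 1 (adjusted p = 0.0631) and without STING KO replicate 1 (0.0828). Nos2, the inducible nitric oxide synthase, was at 21.8, 12.9 and 25.1 in STING KO and 45.9, 45.9 and 49.7 in control, at -1.29 (SE 0.25, limma adjusted p = 0.155). Its adjusted p leaving out 1 library ran from 0.0474 without STING KO replicate 3 to 0.704 without control replicate 1, and only the first of these 6 fits called it.

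Of 36 paralogs of the members, 31 were tested and 0 called, with a median log2 fold change of 0.07. A positive sign was found in 25 paralogs (80.6%) and 20 targets (83.3%), and 5 paralogs were higher and 3 lower in every STING KO library (16.1% and 9.68%). Car13, a cytosolic carbonic anhydrase, lay opposite to Car9, at 1329, 1401 and 1220.1 normalized counts in STING KO, against 1637, 1557 and 1601 in control (log2 fold change -0.28, SE 0.06, limma adjusted p = 0.255). P4hb, the protein disulfide isomerase that is the beta subunit of collagen prolyl hydroxylase, was at 30862.5, 31012 and 32157 in STING KO, against 28353, 30169 and 29101 in control (log2 fold change 0.10, SE 0.04).

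The glycolysis and glycogen genes, which HIF also drives, gave a picture close to that of the targets in number. Of 27 tested, 14 were higher and 1 lower in every STING KO library (51.9% and 3.7%), 21 were positive (77.8%), the median log2 fold change was 0.15, and 0 were called. Pygl, the liver form of glycogen phosphorylase, was at 370.2, 382 and 386 normalized counts in STING KO and 245, 272 and 303 in control (log2 fold change 0.48, SE 0.09, limma adjusted p = 0.106). Tpi1, triosephosphate isomerase, was at 9133, 9953 and 10029 in STING KO and 8553, 8715 and 8229 in control (0.19, SE 0.05, adjusted p = 0.476). No test of the difference between these lists was made.

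**Figure D4:**
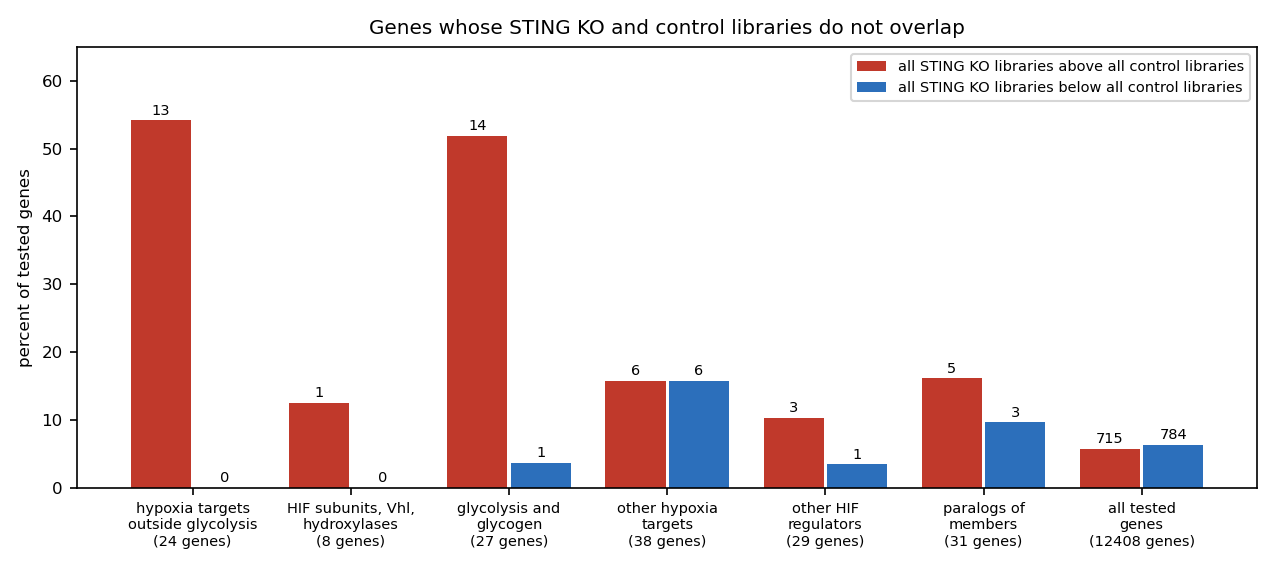
Percent of the tested genes of each set whose 3 STING KO libraries are all above (red) or all below (blue) the 3 control libraries, with the number of genes over each bar. The hypoxia targets (13 of 24) and the glycolysis and glycogen genes (14 of 27) have red bars of 54.2% and 51.9%, against 5.76% of all tested genes, and the other hypoxia targets have 15.8% on both sides.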

How the data were processed

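The deposited data are 1 gene table. Each sample has a column of signal, in which the authors divided gene counts by a size factor of that sample; this was read from the values, which are whole multiples of 1 step per column. Per the file headers, the authors compared STING KO with control and list the log2 fold change, its standard error, a raw and an adjusted p-value and a test score. Per the submitters' processing notes, DESeq2 1.4.5, RSEM 1.2.12, HISAT2 2.0.4 and Bowtie2 2.2.5 were used, without a stated role, on GRCm38 (mm10). No source used here gives the annotation or strandedness, so reads of overlapping or near-identical genes may be shared.

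The first row of each identifier was kept. limma 3.58.1 (R 4.3.3) with a mean-variance trend was fitted to log2(normalized count + 0.1) for all 12408 genes with at least 10 in at least 3 samples, without covariates, and p-values were adjusted by Benjamini-Hochberg over all of them. This scale understates fold changes of low genes. The fit was checked on simulated data with changes of 1.5-fold or more, which leaves smaller ones, such as those of most members, unchecked. GENCODE M21, which holds 27480 of the 27507 identifiers, gave coordinates, exon length and GC content, and the sequences are from RefSeq (GRCm38.p6). The promoter windows of Ero1l were found under its newer symbol Ero1a. The members and lists were chosen with earlier results of these data known. Values per sample are given for the HIF machinery, for targets called by either test or without overlap between the groups, for Sting1 and for the 2 smallest p of each other list; other values were chosen after they were seen. The planned protein motif is not reported here.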

Additional observations from a re-analysis of the deposited data

How the results depend on the processing

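The alternatives were 3 scalings, a pseudocount of 1, no filter, a mean of at least 5 CPM, the replicate block, leaving out each library or both hepatocyte-marked libraries, a term for the latter, a GC and length correction, limma-voom and the authors' test. Of 575 member values under these, 568 stayed on their side of the threshold, 7 newly passed it and 0 reversed; 12 changed sign within 1 SE of 0. The 7 were Ndrg1, Car9 and Selenbp1 in the authors' test, Ndrg1, Selenbp1 and Ndufa4l2 with the GC and length correction, and Ndufa4l2 without control replicate 2. Members called higher were thus 3, 3 and 1, and 0 to 1 over the fits that left out 1 library.

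Over all genes, 32 lower and 0 higher calls became 50 and 7 with the GC and length correction, 35 and 6 in the authors' test, and 13 and 0 without both hepatocyte-marked libraries. Leaving out 1 library gave 21 to 35 lower and 0 to 2 higher. The cause of these shifts was not tested. Fits that left out libraries also had fewer samples. The median log2 fold change of the HIF subunits and hydroxylases was 0.00414 with the GC and length correction, -0.0367 without both marked libraries and -0.0221 to 0.0868 leaving out 1 library. That of the targets was 0.211 without both marked libraries. Members higher in every STING KO library numbered 15 to 19 leaving out 1 library, where 8.37% to 17.3% of all tested genes were, 18 with upper-quartile scaling (7.73%) and 22 without both marked libraries (12.9%). Members lower in every one numbered 0 to 3 leaving out 1 library, against 8.78% to 19.7% of all tested genes.

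Replicate numbers did not pair the samples: deviations of same-numbered samples from their group means correlated at -0.183, -0.18 and -0.488. With the replicate block 18 genes were called lower, 0 higher and 0 members, whose lowest adjusted p was 0.208. Count tests planned on recovered reads were not run, since a check of the values did not accept them as recovered reads. Depth limits Epas1, Hif3a, Car12, Stc1 and Stc2.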
